A study of Arabidopsis thaliana with 6 samples.

Results

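The 32 nuclear genes described here encode subunits of the photosynthetic machinery of the thylakoid membrane. They comprise 11 genes for photosystem I, 11 for photosystem II, 7 for the carriers between and after the photosystems (the Rieske protein of the cytochrome b6f complex, plastocyanin, ferredoxin and ferredoxin-NADP+ oxidoreductase) and 3 for the chloroplast ATP synthase. The rule for choosing them uses gene identity only, by the subunit composition of these complexes, and leaves out the light-harvesting antenna proteins. All 32 were found among the 26764 genes of the count table, of which 26511 are nuclear. Transcripts were measured by RNA-seq in *3h1*, the triple mutant with the T-DNA insertion alleles h1.1-1, h1.2-2 and h1.3-2 in the 3 genes for linker histone H1, and in wild type (wt), both labelled as ecotype Col-0 of *Arabidopsis thaliana*. According to the methods, the h1.3 allele had been brought in from the accession Ler by backcrossing. The mutant line still carries stretches of Ler sequence, mostly beside *H1.3*. For the nucleosome data, the methods describe removing all reads that overlap them. Whether this was also done for the RNA-seq reads is not stated. The methods also do not say whether wt carries any of these stretches. Legends of the paper's other experiments describe wt as wild-type segregants. Whole seedlings were 3 weeks old, had been grown on agar medium with 16 h of light per day, and were pooled before RNA extraction, with 3 biological replicates of each genotype. RNA was depleted of ribosomal RNA and not selected for poly(A) tails.

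Photosystem II takes electrons from water, and the cytochrome b6f complex, plastocyanin and photosystem I carry them on to ferredoxin and ferredoxin-NADP+ oxidoreductase, which makes NADPH. The proton gradient formed on the way drives ATP synthase. In plants each complex is built from subunits encoded in the chloroplast genome, which include the reaction centre proteins, together with subunits encoded in the nucleus and imported. The nuclear genes for these subunits are among the most strongly expressed genes of green tissue, and light and chloroplast signals regulate many of them together.

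The libraries held between 4753812 and 6174881 counts, of which 1846022 to 2877178 fell on nuclear genes. Chloroplast genes took 52.2 to 54.5% of the counts in *3h1* libraries and 55.5 to 60.01% in wt libraries. The 32 members had between 84 and 9563 counts per library, and all passed the filter on low counts. *H1.2* (AT2G30620) lay between 12.8 and 14.2 CPM in *3h1*, against 69.0 to 87.2 CPM in wt, and *H1.1* (AT1G06760) between 12.5 and 19.4 CPM in *3h1*, against 68.3 to 103 CPM in wt, both with an adjusted p value under 0.05 (edgeR). *H1.3* was not among the genes of the count table and could not be analysed. CPM, a count relative to all counts of its library, were scaled by the TMM method, log2 fold changes are *3h1* over wt on that scale, and p values are from the quasi-likelihood test of edgeR over the 17453 genes tested. In these pools of whole seedlings, fewer green cells and less RNA per cell cannot be told apart. Gene positions are those of TAIR10.1.

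Most of the 32 genes had a lower mean transcript level in *3h1* than in wt, and none differed by as much as the H1 genes. Of the 32 members, 29 had a negative log2 fold change, and 14 were lower in *3h1* at an unadjusted p value under 0.05, whereas 4.17% of all tested genes were. No member was higher at that threshold, which 5.33% of all tested genes reached in that direction. No member had an adjusted p value under 0.05 (edgeR, and likewise with DESeq2 and limma voom), which 0.0401% of all tested genes had, and the smallest adjusted p value of a member was 0.311. In 21 members all *3h1* libraries lay below all wt libraries, against 7.5% of all tested genes, and in none did all lie above, against 7.57% of all tested genes. The median log2 fold change of the members was -0.29, within a range from -0.56 to 0.21, and that of all tested genes was 0.01. These members had been chosen with results of the same libraries known, so that the counts are a description of the list.

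**Figure D1:**
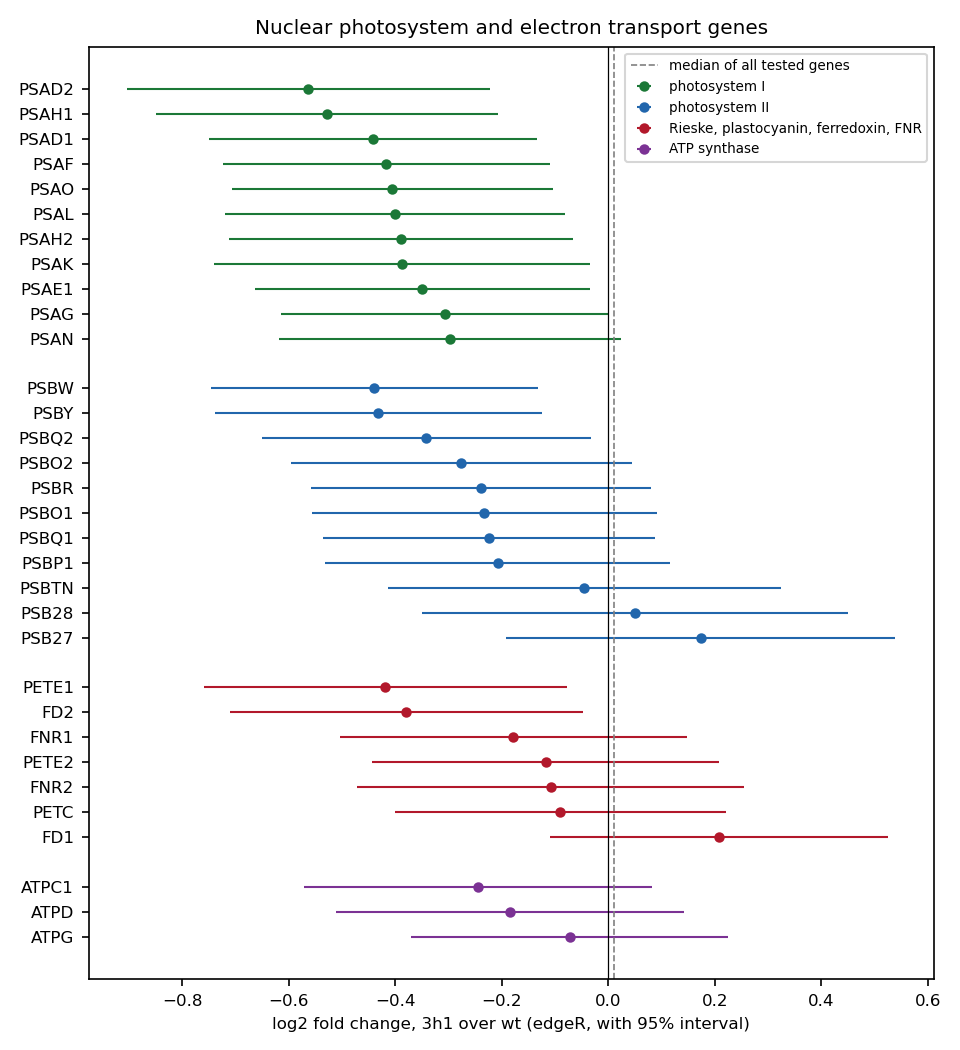
Log2 fold change of *3h1* over wt for each of the 32 genes, grouped by complex, as points with the 95% interval derived from the edgeR test, and with the median of all tested genes as a dashed line. All 11 photosystem I genes lie between -0.56 and -0.30, whereas photosystem II genes spread from -0.44 to 0.17 and carriers from -0.42 to 0.21.

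The difference depended on how libraries were scaled. Without TMM scaling, as CPM of all counts, the median log2 fold change was -0.06 for the members and 0.24 for all tested genes, a difference of -0.29, against -0.30 with TMM scaling. At that scale 0 members were lower and 2, *PSB27* and *FD1*, were higher at an unadjusted p value under 0.05 (edgeR). Still 21 members had a negative log2 fold change, and among them were all 11 photosystem I genes, with -0.32 to -0.07. The statements on single genes are therefore relative to the other genes of the library. Summed over the 32 genes, the members took 2.84, 2.96 and 2.83% of the nuclear counts in the 3 *3h1* libraries, against 3.45, 3.20 and 3.33% in the 3 wt libraries. The groups do not overlap, with means of 2.88 ± 0.0764% in *3h1* and 3.33 ± 0.127% in wt (SD, n = 3 each). As a share of all counts, chloroplast transcripts included, they took 1.32, 1.32 and 1.29% in *3h1*, against 1.504, 1.24 and 1.31% in wt, and the groups overlap.

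The 250 bases upstream of the annotated start of the gene are shown for 4 of the genes lower at an unadjusted p value under 0.05 and for 2 that were not. All 6 stretches are free of overlap with a neighbouring gene. They are shown because short elements that recur in light-regulated plant promoters can be read in them. The annotated start is the outer end of the gene annotation, and the start of transcription was not measured here. Capitals mark the elements searched on both strands, which were the G-box CACGTG, the I-box GATAAG, the element CCAATC bound by GLK-type factors and the TATA box TATAAA. The sequences run 5′ to 3′ along the strand of the gene, come from RefSeq TAIR10.1 and end 1 base before the annotated start.
*PSAD1*, chr4:1230165-1230414, minus strand: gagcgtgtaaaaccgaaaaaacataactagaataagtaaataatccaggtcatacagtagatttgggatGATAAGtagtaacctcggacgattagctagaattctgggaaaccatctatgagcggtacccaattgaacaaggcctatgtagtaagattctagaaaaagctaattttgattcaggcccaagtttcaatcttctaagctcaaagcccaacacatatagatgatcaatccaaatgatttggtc
*PSAF*, chr1:11216142-11216391, minus strand: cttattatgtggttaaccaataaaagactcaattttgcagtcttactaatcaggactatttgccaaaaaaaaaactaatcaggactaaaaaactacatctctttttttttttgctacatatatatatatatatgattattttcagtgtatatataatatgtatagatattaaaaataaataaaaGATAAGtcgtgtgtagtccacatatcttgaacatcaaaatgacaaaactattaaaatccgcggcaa
*PSAK*, chr1:10721933-10722182, plus strand: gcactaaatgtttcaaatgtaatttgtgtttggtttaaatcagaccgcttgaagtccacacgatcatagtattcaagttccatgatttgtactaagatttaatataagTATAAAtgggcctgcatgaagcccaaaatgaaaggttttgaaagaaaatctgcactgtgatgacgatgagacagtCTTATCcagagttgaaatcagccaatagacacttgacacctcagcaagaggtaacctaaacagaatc
*PSBQ2*, chr4:2673244-2673493, minus strand: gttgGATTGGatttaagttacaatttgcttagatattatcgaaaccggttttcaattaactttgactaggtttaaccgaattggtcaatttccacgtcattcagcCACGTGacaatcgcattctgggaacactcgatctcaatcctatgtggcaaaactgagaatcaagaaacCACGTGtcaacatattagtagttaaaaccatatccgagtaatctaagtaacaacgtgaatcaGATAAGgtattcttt
*PETC*, chr4:1439896-1440145, plus strand: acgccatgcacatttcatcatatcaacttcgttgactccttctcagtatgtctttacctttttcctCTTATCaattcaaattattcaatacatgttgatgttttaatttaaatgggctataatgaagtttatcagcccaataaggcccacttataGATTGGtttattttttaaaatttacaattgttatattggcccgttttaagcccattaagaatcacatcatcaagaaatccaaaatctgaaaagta
*PSB28*, chr4:14149599-14149848, plus strand: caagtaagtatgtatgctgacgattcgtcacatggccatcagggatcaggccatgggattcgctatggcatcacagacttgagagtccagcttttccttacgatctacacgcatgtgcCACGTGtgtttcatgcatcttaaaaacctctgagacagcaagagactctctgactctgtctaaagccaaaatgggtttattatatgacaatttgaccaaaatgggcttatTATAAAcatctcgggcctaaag
*PSAD1* and *PSAF* hold 1 I-box each, *PSAK* an I-box on the other strand and a TATA box, and *PSBQ2* a pair of G-boxes, an I-box and a GLK-type element. Of the genes that were not lower, *PETC* holds an I-box and a GLK-type element and *PSB28* a G-box and a TATA box. The 4 lower genes shown are those whose upstream stretch is free of overlap and holds an I-box. Among the lower genes that are not shown but have a stretch free of overlap, *PSAL*, *FD2* and *PSBY* hold none of the elements there. The stretch of *PSAH1*, which was also lower, is free of overlap too and holds only a TATA box.

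Over all members, the window of 300 bases from 250 before to 50 after the start held an I-box in 18 of 32 (56.25%), whereas 14.65% of all 27443 promoters held one. A G-box was present in 12 of 32 (37.5%), against 7.68% of all promoters. The GLK-type element was found in 8 of 32 (25%), against 12.35% of all promoters, and the TATA box in 16 of 32 (50%), against 52.15%. Within the 250 upstream bases alone, the I-box was present in 9 members, against 12.29% of all promoters, and the G-box in 6, against 6.49%. Of the 14 genes lower at an unadjusted p value under 0.05, 11 held an I-box and 5 a G-box in the 300 bases, and of the other 18 genes, 7 held an I-box and 7 a G-box. In the 250 upstream bases alone, the lower genes with an I-box were *PSAD1*, *PSAF*, *PSAK*, *PSAH2* and *PSBQ2*. The other genes with one there were *PETE2*, *PETC*, *ATPG* and *FNR1*. A G-box lay there in the lower genes *PSAH2* and *PSBQ2* and in the others *PSBTN*, *ATPD*, *PSBQ1* and *PSB28*. These counts are descriptions of letters in the window and were not tested.

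Photosystem I showed the most even difference. All 11 genes had all *3h1* libraries below all wt libraries, 9 of the 11 were lower at an unadjusted p value under 0.05, and the median log2 fold change was -0.40, with a range from -0.56 to -0.30. With a library left out, 5 of the 9 genes kept that threshold without wt replicate 1, 6 without *3h1* replicate 1 or wt replicate 2, and 7 or 8 without each of the other 3 libraries. Mean levels in *3h1* were 67.5 to 81.4% of the wt mean. Photosystem I passes electrons from plastocyanin on the lumenal side to ferredoxin on the stromal side, and its nuclear subunits fall into those that dock the carriers and those that bind antenna proteins.

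On the stromal side, where ferredoxin docks, PsaD is encoded by *PSAD1* (AT4G02770, chr4:1229031-1230164) and *PSAD2* (AT1G03130, chr1:753307-754262) and PsaE by *PSAE1* (AT4G28750, chr4:14202758-14204061). *PSAD2* had 53.6, 41.3 and 55.8 CPM in *3h1*, against 69.8, 82.3 and 71.0 CPM in wt, with a log2 fold change of -0.56 ± 0.155 (SE; edgeR, unadjusted p = 0.00380, adjusted p = 0.311), the most negative of the 32 genes. *PSAD1* had 278, 243 and 279.7 CPM in *3h1*, against 345, 384 and 359 CPM in wt, with a log2 fold change of -0.44 ± 0.141 (edgeR, unadjusted p = 0.00901). In both genes replicate 2 was the lowest *3h1* library, and the groups do not overlap. *PSAE1* had 390.1, 339.9 and 397 CPM in *3h1*, against 457, 510.5 and 468 CPM in wt, with a log2 fold change of -0.35 ± 0.143 (edgeR, unadjusted p = 0.0324), and *3h1* replicate 2 was again the lowest library. The second gene for PsaE, *PSAE2*, was not among the genes of the count table and could not be analysed.

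On the lumenal side, PsaF (AT1G31330, chr1:11214676-11216141) and PsaN (AT5G64040, chr5:25628521-25629708) take part in the docking of plastocyanin. *PSAF* had 349, 339.5 and 344 CPM in *3h1*, against 455, 498 and 425 CPM in wt, with a log2 fold change of -0.42 ± 0.140 (edgeR, unadjusted p = 0.0122). Its *3h1* libraries were nearly level, and all lay below the lowest wt library. *PSAN* had 432, 506 and 409.6 CPM in *3h1*, against 538, 547 and 571 CPM in wt, with a log2 fold change of -0.30 ± 0.147 (edgeR, unadjusted p = 0.0666), and its groups were separate but not past the threshold.

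The remaining photosystem I subunits lie at its edges, where antenna proteins attach. PsaH, PsaL and PsaO form the side at which mobile light-harvesting complex II binds during state transitions, the shifts of antenna between the photosystems. *PSAH1* (AT3G16140, chr3:5467987-5469594) had 101, 118 and 132 CPM in *3h1*, against 173, 163 and 171 CPM in wt, with a log2 fold change of -0.53 ± 0.146 (edgeR, unadjusted p = 0.00388). *PSAH2* (AT1G52230, chr1:19454798-19455668), the second gene for this subunit, had 209, 209.6 and 188 CPM in *3h1*, against 279, 229 and 286 CPM in wt, with a log2 fold change of -0.39 ± 0.147 (edgeR, unadjusted p = 0.0221). The *3h1* libraries that were lowest differed between the genes, replicate 1 for *PSAH1* and replicate 3 for *PSAH2*. *PSAL* (AT4G12800, chr4:7521257-7522761) had 632, 650.0 and 709 CPM in *3h1*, against 909, 911 and 808 CPM in wt, with a log2 fold change of -0.40 ± 0.145 (edgeR, unadjusted p = 0.0184). *PSAO* (AT1G08380, chr1:2640803-2641934) had 521, 540.0 and 544 CPM in *3h1*, against 716, 716 and 695 CPM in wt, with a log2 fold change of -0.41 ± 0.137 (edgeR, unadjusted p = 0.0128), and its libraries varied little within either genotype.

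PsaK (AT1G30380, chr1:10722183-10723247) and PsaG (AT1G55670, chr1:20802670-20803449) lie on the side of the fixed antenna of photosystem I. *PSAK* had 299, 344 and 280.3 CPM in *3h1*, against 473, 375 and 358 CPM in wt, with a log2 fold change of -0.39 ± 0.161 (edgeR, unadjusted p = 0.0346). Replicate 1 was the highest wt library, and without it the log2 fold change was -0.26 (edgeR, unadjusted p = 0.183). *PSAG* had 144, 142 and 170.1 CPM in *3h1*, against 191, 193 and 181 CPM in wt, with a log2 fold change of -0.31 ± 0.140 (edgeR, unadjusted p = 0.0512), and its groups were separate.

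**Figure D2:**
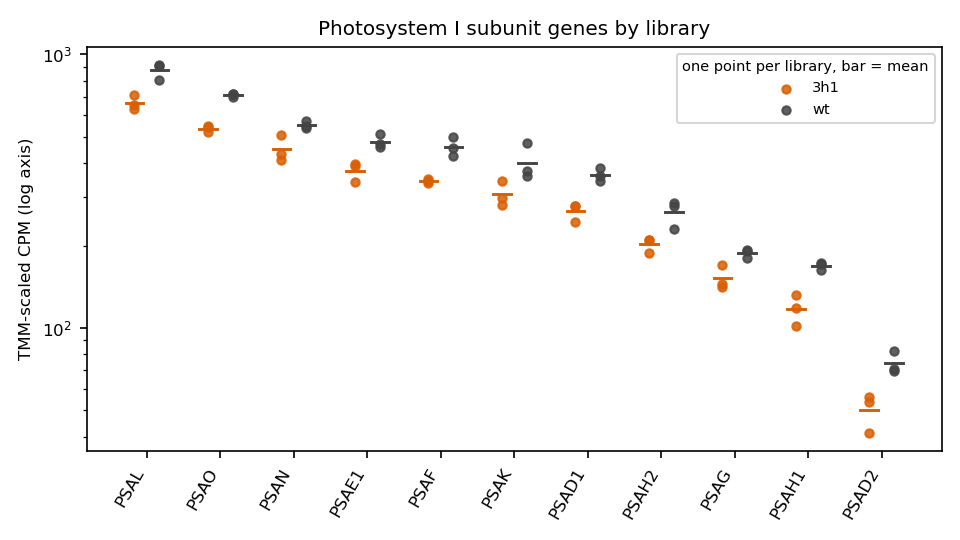
TMM-scaled CPM of the 11 photosystem I genes on a log axis, with 1 point per library and the mean as a bar, *3h1* left of wt. In each gene the 3 *3h1* points lie below the 3 wt points, from *PSAL* at 632 to 709 CPM in *3h1* and 808 to 911 CPM in wt to *PSAD2* at 41.3 to 55.8 CPM in *3h1* and 69.8 to 82.3 CPM in wt.

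Photosystem II was less even. Of its 11 genes, 3 were lower at an unadjusted p value under 0.05 and 7 had all *3h1* libraries below all wt libraries, and the median log2 fold change was -0.23, with a range from -0.44 to 0.17. The 3 lower genes were *PSBW*, *PSBY* and *PSBQ2*. PsbW (AT2G30570, chr2:13019028-13020311) is a small membrane subunit that stabilizes the supercomplex of photosystem II with its antenna, and its gene had 505, 518 and 546 CPM in *3h1*, against 742, 677 and 707 CPM in wt, with a log2 fold change of -0.44 ± 0.140 (edgeR, unadjusted p = 0.00917). PsbY (AT1G67740, chr1:25394031-25395249) is a small membrane subunit close to cytochrome b559, and its gene had 115, 102 and 116 CPM in *3h1*, against 152, 161 and 137 CPM in wt, with a log2 fold change of -0.43 ± 0.140 (edgeR, unadjusted p = 0.0100). Both genes kept an unadjusted p value under 0.05 with each of the 6 libraries left out in turn.

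The extrinsic proteins PsbO, PsbP and PsbQ cover the manganese cluster that splits water on the lumenal side. *PSBQ2* (AT4G05180, chr4:2671523-2673243) had 484, 515 and 484 CPM in *3h1*, against 637, 583 and 658 CPM in wt, with a log2 fold change of -0.34 ± 0.141 (edgeR, unadjusted p = 0.0328). *PSBQ1* (AT4G21280, chr4:11334352-11335815) had 239, 262 and 226 CPM in *3h1*, against 302, 259 and 287 CPM in wt, with a log2 fold change of -0.22 ± 0.142 (edgeR, unadjusted p = 0.141). The genotypes overlap in *PSBQ1* and are separate in *PSBQ2*. *PSBO1* (AT5G66570, chr5:26568572-26570461), for the manganese-stabilizing protein, had 1376, 1471 and 1309 CPM in *3h1*, against 1571, 1679.8 and 1633 CPM in wt, with a log2 fold change of -0.23 ± 0.148 (edgeR, unadjusted p = 0.143). *PSBO2* (AT3G50820, chr3:18890874-18892508), its second gene, had 417, 400.4 and 358 CPM in *3h1*, against 459, 521 and 443 CPM in wt, with a log2 fold change of -0.28 ± 0.146 (edgeR, unadjusted p = 0.0846). Both were below wt in every pair of libraries and did not pass the threshold.

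*PSBP1* (AT1G06680, chr1:2047634-2049439) had 1308, 1408 and 1239.6 CPM in *3h1*, against 1517, 1479.9 and 1569 CPM in wt, with a log2 fold change of -0.21 ± 0.148 (edgeR, unadjusted p = 0.187). *PSBR* (AT1G79040, chr1:29735952-29737009), for a lumenal subunit needed for stable binding of the extrinsic proteins, had 1032, 1039 and 1058 CPM in *3h1*, against 1140.3, 1255 and 1299.5 CPM in wt, with a log2 fold change of -0.24 ± 0.145 (edgeR, unadjusted p = 0.127). The groups were separate in both genes without passing the threshold. *PSBP2*, a close copy of *PSBP1*, had at most 12 counts in any library and was not tested. The other 3 photosystem II genes overlapped between genotypes. *PSBTN* (AT3G21055, chr3:7376432-7377226), for the small nuclear-encoded PsbTn subunit, ranged from 200.3 to 256 CPM in *3h1* and from 211 to 289 CPM in wt, with a log2 fold change of -0.05 ± 0.168 (edgeR, unadjusted p = 0.793).

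The other 2 genes, for factors that act during assembly and repair of photosystem II rather than in the finished complex, had positive log2 fold changes. *PSB27* (AT1G03600, chr1:898480-899794) ranged from 99.8 to 150.5 CPM in *3h1* and from 107 to 119 CPM in wt, with a log2 fold change of 0.17 ± 0.166 (edgeR, unadjusted p = 0.319). *PSB28* (AT4G28660, chr4:14149849-14151163), whose role is best known from cyanobacteria, ranged from 38.3 to 43.0 CPM in *3h1* and from 28.2 to 46.6 CPM in wt, with a log2 fold change of 0.05 ± 0.182 (edgeR, unadjusted p = 0.790). Its sign turned to -0.16 without wt replicate 3, the lowest wt library.

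The carriers were mixed. Of their 7 genes, 2 were lower at an unadjusted p value under 0.05, 6 had a negative log2 fold change, and the median was -0.12, with a range from -0.42 to 0.21. The Rieske iron-sulfur protein is encoded by *PETC* (AT4G03280, chr4:1440146-1441863), which ranged from 243 to 296 CPM in *3h1* and from 276 to 299 CPM in wt, with a log2 fold change of -0.09 ± 0.142 (edgeR, unadjusted p = 0.538). Plastocyanin, the copper protein between cytochrome b6f and photosystem I, is encoded by 2 genes. *PETE1* (AT1G76100, chr1:28553883-28554930) had 31.6, 25.04 and 24.2 CPM in *3h1*, against 39.1, 36.4 and 32.7 CPM in wt, with a log2 fold change of -0.42 ± 0.155 (edgeR, unadjusted p = 0.0204). *PETE2* (AT1G20340, chr1:7042046-7043392) had 917, 929.8 and 804 CPM in *3h1*, against 982, 887 and 1005 CPM in wt, with a log2 fold change of -0.12 ± 0.149 (edgeR, unadjusted p = 0.447). The genotypes are separate in the minor gene *PETE1* and overlap in *PETE2*, which held nearly all of the plastocyanin counts.

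Ferredoxin receives the electrons of photosystem I. *FD2* (AT1G60950, chr1:22444307-22445291), the main leaf ferredoxin, had 138, 152 and 128 CPM in *3h1*, against 199.9, 188 and 155 CPM in wt, with a log2 fold change of -0.38 ± 0.151 (edgeR, unadjusted p = 0.0285). *FD1* (AT1G10960, chr1:3664187-3665040) had 27.6, 24.1 and 26.5 CPM in *3h1*, against 24.3, 20.9 and 22.3 CPM in wt, with a log2 fold change of 0.21 ± 0.145 (edgeR, unadjusted p = 0.177), the highest of the 32 genes. *FD2* was separate between the genotypes, and in *FD1* the lowest *3h1* library lay just under the highest wt library. Ferredoxin-NADP+ oxidoreductase passes the electrons to NADP+. *FNR1* (AT5G66190, chr5:26450964-26453199) had 292, 325 and 256 CPM in *3h1*, against 305, 336 and 347 CPM in wt, with a log2 fold change of -0.18 ± 0.149 (edgeR, unadjusted p = 0.254). *FNR2* (AT1G20020, chr1:6942625-6945091) had 549, 678 and 482 CPM in *3h1*, against 583, 586 and 673 CPM in wt, with a log2 fold change of -0.11 ± 0.166 (edgeR, unadjusted p = 0.527). In both genes *3h1* replicate 3 was the lowest library and *3h1* replicate 2 the highest of its genotype, and the groups overlap.

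None of the 3 ATP synthase genes was lower at an unadjusted p value under 0.05, and their median log2 fold change was -0.19. *ATPC1* (AT4G04640, chr4:2350498-2352025), for the gamma subunit of the rotor, had 297, 295 and 236 CPM in *3h1*, against 310.2, 342 and 329 CPM in wt, with a log2 fold change of -0.24 ± 0.149 (edgeR, unadjusted p = 0.127), and its groups were separate. *ATPD* (AT4G09650, chr4:6100714-6101864), for the delta subunit of the stator, ranged from 159.6 to 208 CPM in *3h1* and from 208 to 223 CPM in wt, with a log2 fold change of -0.19 ± 0.149 (edgeR, unadjusted p = 0.238). *ATPG* (AT4G32260, chr4:15573553-15574737), for a peripheral stalk subunit, ranged from 145 to 158 CPM in *3h1* and from 148 to 168 CPM in wt, with a log2 fold change of -0.07 ± 0.135 (edgeR, unadjusted p = 0.603). The genotypes overlap in *ATPD* and *ATPG*. *3h1* replicate 3 was the lowest library in *ATPC1* and *ATPD*, and without it their log2 fold changes were -0.14 and -0.08 (edgeR, unadjusted p = 0.324 and 0.592). *ATPC2*, a second gene for the gamma subunit, had 2.91 ± 1.01 CPM in *3h1* and 2.99 ± 1.97 CPM in wt (SD, n = 3 each).

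**Figure D3:**
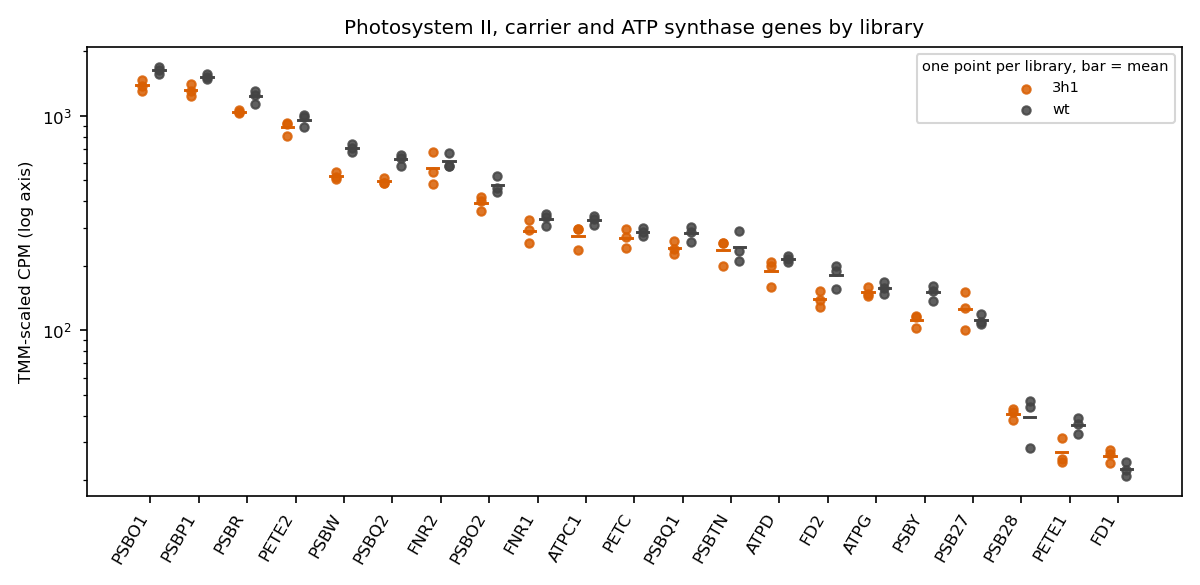
TMM-scaled CPM of the 21 photosystem II, carrier and ATP synthase genes on a log axis, with 1 point per library and the mean as a bar, *3h1* left of wt. The points are separate in genes such as *PSBW* and *PSBY* and overlap in *FNR2*, *PETE2*, *PSBTN*, *PSB27* and *PSB28*.

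The *3h1* libraries did not differ alike over the complexes. *3h1* replicate 3 was the lowest of the 6 libraries in 16 of the 32 genes, which included 6 of the 7 carriers and 2 of the 3 ATP synthase genes but only 3 of the 11 photosystem I genes. Replicate 2 of *3h1* was lowest in 5 photosystem I genes and replicate 1 in 3. The median deviation of the carriers from their mean over all libraries was -0.04, 0.02 and -0.27 on the log2 scale in the *3h1* libraries in order of their number, against 0.04, -0.0045 and 0.11 in the wt libraries. That of photosystem I was -0.20, -0.23 and -0.15 in *3h1* and 0.20, 0.22 and 0.17 in wt.

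Each of 7 subunits or carriers is encoded by a pair of members, and the share of each gene in its pair was compared within libraries. In the ferredoxin pair, *FD1* held 16.6, 13.7 and 17.1% of the counts in *3h1*, against 10.8, 10.01 and 12.6% in wt, a difference of 4.70 percentage points with separate groups. An exact two-sided permutation test gave p = 0.1, the smallest that 3 libraries against 3 allow, and 0.35 adjusted over the 7 pairs. The share of *PETE1* averaged 2.96 ± 0.358% in *3h1* and 3.64 ± 0.428% in wt, that of *PSAD1* 84.2 ± 1.12% in *3h1* and 83.0 ± 0.588% in wt, and that of *PSBQ1* 32.9 ± 0.943% in *3h1* and 31.1 ± 0.928% in wt (SD, n = 3 each; exact permutation p = 0.2 for each, 0.35 adjusted). For *PSAH1*, *PSBO1* and *FNR1* the exact permutation p was 0.4, 0.7 and 0.6, so that no pair passed an adjusted threshold. Summed to 1 feature, the PsaD pair had a log2 fold change of -0.46 ± 0.144 and the PsaH pair -0.44 ± 0.141 (SE; edgeR, unadjusted p = 0.00799 and 0.00907), whereas the ferredoxin pair had -0.30 ± 0.147 (edgeR, unadjusted p = 0.0638).

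Ratios of summed counts within a library do not depend on scaling. They were computed after the values of single genes had been seen and are given without a test. Photosystem I genes had 0.578, 0.573 and 0.607 counts per count of photosystem II genes in *3h1*, against 0.667, 0.652 and 0.620 in wt. The groups are separate, and the *3h1* mean was 0.907 times the wt mean. Set against 13 nuclear genes of the Calvin cycle, which fixes CO2 with the NADPH and ATP made by the thylakoid, photosystem I had 0.414, 0.388 and 0.478 counts per count in *3h1*, against 0.530, 0.520 and 0.507 in wt, and the *3h1* mean was 0.822 times the wt mean. Photosystem II had 0.716, 0.676 and 0.787 in *3h1*, against 0.795, 0.798 and 0.818 in wt, which is also separate. The carriers had 0.270, 0.271 and 0.267 in *3h1*, against 0.278, 0.263 and 0.293 in wt, and overlap. Per count of the carriers, photosystem I had 1.53, 1.43 and 1.79 counts in *3h1*, against 1.90, 1.98 and 1.73 in wt, and photosystem II had 2.65, 2.49 and 2.95 in *3h1*, against 2.85, 3.03 and 2.79 in wt. Both overlap, since *3h1* replicate 3 lay above wt replicate 3. Per count of antenna genes, photosystem I had 0.226, 0.246 and 0.194 counts in *3h1*, against 0.194, 0.193 and 0.195 in wt, with the *3h1* mean at 1.14 times the wt mean and overlapping groups.

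**Figure D4:**
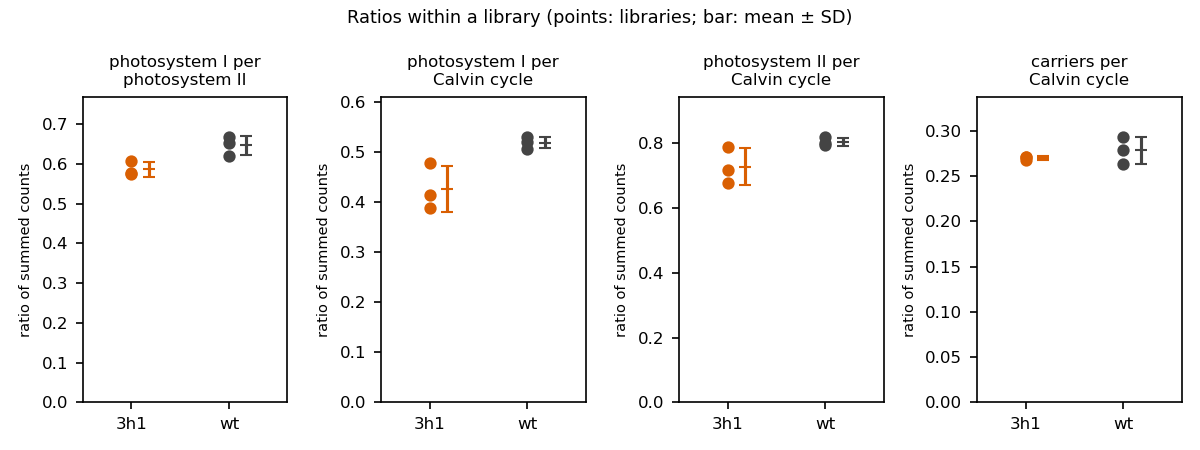
Ratios of summed counts within each library, with 1 point per library and the mean ± SD beside it, *3h1* left of wt, on axes that start at 0. Photosystem I per photosystem II lies at 0.573 to 0.607 in *3h1* and 0.620 to 0.667 in wt, and the carriers per Calvin cycle gene overlap.

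Other genes of the pathway were counted from lists of known function. Of 16 antenna genes tested, 15 were lower at an unadjusted p value under 0.05 and 1, *LHCB2.3*, had an adjusted p value under 0.05 (edgeR), and the median log2 fold change was -0.59, below that of the photosystem I genes. Of 14 genes for assembly and regulation of the photosystems, 1 was lower, *HCF136* (AT5G23120), a photosystem II assembly factor with 67.5 ± 12.8 CPM in *3h1* and 87.8 ± 4.40 CPM in wt (SD, n = 3 each; edgeR, unadjusted p = 0.0348), and the median was -0.17. Of the 13 Calvin cycle genes none was lower or higher, and the median was -0.07. These lists share the libraries of the members and are side by side only.

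**Figure D5:**
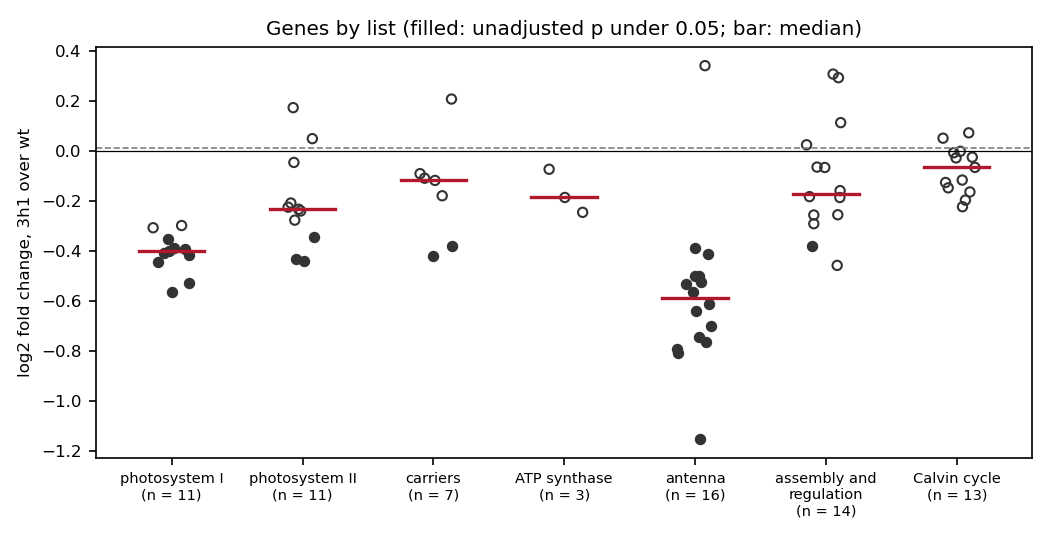
Log2 fold change of *3h1* over wt for each tested gene of 7 lists, with genes at an unadjusted p value under 0.05 as filled points, the median of each list as a bar and the median of all tested genes as a dashed line. The medians run from -0.59 for antenna genes over -0.40 for photosystem I to -0.07 for the Calvin cycle.

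Among 11 known regulators of photosynthesis genes or chloroplast transcription, 3 were lower at an unadjusted p value under 0.05. *HY5* (AT5G11260), a light-signalling factor that binds G-box-like elements, had 4.62 ± 1.06 CPM in *3h1* and 7.38 ± 2.38 CPM in wt (SD, n = 3 each; edgeR, unadjusted p = 0.0457, adjusted p = 0.517). Its groups overlap. *SIG1* and *SIG5*, for sigma factors of the chloroplast polymerase, were high in wt replicate 3, with 43.0 and 38.0 CPM. Of 6 clock genes tested, 3 were lower at that threshold, *GI*, *PRR7* and *PRR5* (edgeR, unadjusted p = 0.0109, 0.0445 and 0.0471). *TOC1*, *ELF4* and *CCA1* did not pass it, with log2 fold changes of -0.11, -0.07 and 0.35 (edgeR, unadjusted p = 0.491, 0.651 and 0.475). The hour of harvest is not given in the sources used here, and its part in the result was not tested.

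Cell type markers were read beside the members. The 3 leaf genes *RBCS1A*, *RCA* and *CA1* summed to 3548, 3731 and 3222 CPM in *3h1*, against 3780, 3791 and 3682 CPM in wt, and none of the 3 was lower at an unadjusted p value under 0.05. *RBCS1A* and *RCA* are also on the list of Calvin cycle genes, so that the leaf sum and that list are not separate readings. The 8 root markers with a row summed to 188, 251 and 187 CPM in *3h1*, against 227, 168 and 188 CPM in wt, and most of this sum was *PYK10* alone. Of the 3 root markers tested, *SHR* was higher at an unadjusted p value under 0.05, with 8.65, 7.10 and 8.08 CPM in *3h1*, against 5.26, 2.99 and 4.87 CPM in wt (log2 fold change 0.84 ± 0.262; edgeR, unadjusted p = 0.00831, adjusted p = 0.350), whereas *SCR* and *PYK10* had log2 fold changes of 0.04 and 0.10 (edgeR, unadjusted p = 0.861 and 0.607). The 7 flower markers summed to 16.7, 7.47 and 20.9 CPM in *3h1*, against 5.60, 6.73 and 4.87 CPM in wt. The 2 tested, *SEP3* and *SEP1*, were higher at an unadjusted p value under 0.05 (edgeR). *SEP3* had 3.88, 3.55 and 4.34 CPM in *3h1*, against 0.821, 2.24 and 0.812 CPM in wt, with separate groups. *SEP1* had 4.18, 1.87 and 10.8 CPM in *3h1*, against 1.97, 1.99 and 1.83 CPM in wt, and its groups overlap. None of these markers was at 0 in all libraries of a genotype. The part of tissue composition in the result was not tested. The senescence gene *SAG13* was under the filter on low counts, with 1.92, 0.934 and 1.65 CPM in *3h1*, against 0.832, 0.249 and 1.01 CPM in wt.

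The chloroplast-encoded partners of these subunits were counted from a list of 32 identifiers, and none is named singly, since the files do not pair the identifiers with gene names. Of the 32, all tested, 19 were lower and 0 higher at an unadjusted p value under 0.05, and 0 had an adjusted p value under 0.05 (edgeR). The log2 fold change was negative for 31, with a median of -0.41, and 25 had all *3h1* libraries below all wt libraries. Of all 125 chloroplast genes tested, 25 were lower and 1 was higher at that threshold, with a median of -0.19. These counts depended on single libraries and on scaling. Of the listed identifiers, 5 were lower without *3h1* replicate 1, 7 without wt replicate 3 and 26 without *3h1* replicate 2, and over all chloroplast genes 6 were lower without *3h1* replicate 1, 8 without wt replicate 3, 15 without wt replicate 2 and 44 without *3h1* replicate 2. Without TMM scaling 2 of the listed identifiers were lower and their median was -0.18, whereas over all 125 the same number was lower, 6 were higher and the median turned to 0.05.

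The members share features that their choice did not use. Their median exon length was 1106 bases, against 1874 bases in all 17237 tested genes with a length, and they had a median of 2 exon blocks, against 4. Per length, their median level was 266 RPKM in *3h1* and 314 RPKM in wt, whereas the median of all these genes was 3.93 RPKM in *3h1* and 3.88 RPKM in wt. In wt they ranked from 134, for *PSBR* at 1571 RPKM, to 1542, for *FD1* at 26.4 RPKM. Of the 32 genes, 15 lie on chromosome 1, 1 on chromosome 2, 3 on chromosome 3, 10 on chromosome 4 and 3 on chromosome 5 of TAIR10.1. For 10 members the annotated gene overlaps another, among them *PSAD2*, *PSAH1*, *PSAH2* and *PSAE1*, and the sources do not say whether reads were counted by strand. A fractional count in all 6 libraries, the mark of reads divided between loci, was found in 6 members, *PSAL*, *PSBQ2*, *PSBO2*, *PSBP1*, *FNR1* and *FNR2*.

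The stability of the 14 lower genes was read from fits with each library left out in turn. *PSAD2*, *PSAH1*, *PSAD1*, *PSAO*, *PSBW* and *PSBY* kept an unadjusted p value under 0.05 in all 6 fits, *PSAF* in 5, *PSAH2* and *PETE1* in 4, *PSAL*, *PSAK* and *PSBQ2* in 3, *FD2* in 2 and *PSAE1* in 1. Without wt replicate 1, 7 of the 14 kept it, and without *3h1* replicate 1, 9 did, whereas 13 did without *3h1* replicate 2 (edgeR).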

How the data were processed

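RNA-seq libraries of 3 *3h1* and 3 wt pools of seedlings were compared. The deposited values are expected counts per gene before normalization. According to the methods and processing notes, the authors filtered the reads for ribosomal RNA and spike-ins, aligned them to TAIR10 with TMAP 5.0.13, with BBMap for unaligned reads, and quantified ARAPORT11 genes in Partek Flow by expectation maximization, which divides multi-mapping reads between loci. A second deposited table holds the authors' own comparison (ratios, p values and FDR) and was not used. Expected counts were rounded, filtered with filterByExpr, scaled by TMM and tested with the quasi-likelihood test of edgeR 4.0.16 (R 4.3.3) with Benjamini-Hochberg adjustment over 17453 genes. The procedure was tried on simulated counts with changes larger than those of most members, so that the trial does not show how smaller changes are recovered. DESeq2 1.42.0, limma voom 3.58.1, other normalizations and filters, unrounded counts, a replicate block, nuclear genes only, summed gene pairs and each library left out were alternatives, and unscaled libraries were added after seeing the data. RPKM were computed from TMM-scaled CPM and exon length in TAIR10.1, which 26511 of 26764 identifiers matched by locus tag. Members and lists were chosen with earlier results of these data known.

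All 32 members are named. Values per library are given for genes with an unadjusted p value under 0.05, genes with separate groups and both genes of each pair, and at most 3 genes per other list. The files pair no names with chloroplast identifiers, so the 32 listed partners and all 125 are given as counts with none named, and their share of the counts was not tested. No p value is given for the share of counts held by the members. Total counts between 4753812 and 6174881 limit the precision, and SE and intervals cover the spread between these 6 libraries. Every sample column was used, and replicates are biological replicates per the methods.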

Additional observations from a re-analysis of the deposited data

How the results depend on the processing

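The number of members lower at an unadjusted p value under 0.05, 14, was 13 to 16 under the other normalizations, tests, filters and rounding and with nuclear genes only (edgeR, DESeq2 and limma voom). It was 9 with the pairs summed to 25 features, 0 without library scaling, and 7 to 14 with each library left out. Without library scaling 2 members were higher, 3 were below wt in all 9 pairs and 1 was above, and with each library left out 0 to 2 were above. The median log2 fold change of -0.29 was -0.34 with no filter, -0.25 with at least 10 counts in every library, -0.055 without scaling and -0.31 to -0.24 with each library left out. The difference in the share of nuclear counts, -0.451 percentage points, was -0.0402 over all counts, -0.675 without the 100 most abundant other genes and -0.515 to -0.388 with each library left out. The difference of the *PSBO1* share was -0.057 to 1.11 percentage points with each library left out. The number of chloroplast genes lower was 6 to 44 and their median -0.30 to -0.15 with each library left out, and 2 and 0.047 without scaling. Of the listed chloroplast identifiers, 5 to 26 were lower with each library left out, with a median of -0.51 to -0.33, and 2 without scaling, with a median of -0.18. The sign of the log2 fold change turned without scaling for *PSBP1* (0.021), *PSBTN* (0.195), *PETC* (0.14), *PETE2* (0.11), *FNR1* (0.054), *FNR2* (0.12), *ATPD* (0.039) and *ATPG* (0.15). It turned for *PSBTN* without *3h1* replicate 2 (0.035) or wt replicate 2 (0.073), for *PSB28* with no filter (-0.0044) or without wt replicate 3 (-0.16), and for *FNR2* without *3h1* replicate 3 (0.00014). With each library left out, the log2 fold change ranged from -0.16 to 0.073 for *PSBTN*, from -0.16 to 0.16 for *PSB28* and from -0.28 to 0.00014 for *FNR2*. The cause was not tested.

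The sources do not say whether the replicate numbers mark a shared batch. The correlations of the deviations of same-numbered libraries were -0.0504, -0.144 and -0.111, and those of differently numbered libraries -0.0262 to 0.125. The same-numbered values thus all lay below the differently numbered ones. Deviations from a mean of 3 libraries are not independent of each other, and whether the numbers pair the libraries was not tested. With the replicate number as a block, 9 members were lower at an unadjusted p value under 0.05, of which 5 were photosystem I genes (edgeR).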
